A study of Mus musculus with 44 samples.

Results

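Primary microglia from APOE44 mice were compared with microglia from wild-type mice across all expressed genes. The libraries were chosen by their titles: 6 of APOE44 and 6 of wild-type microglia, 12 of the 44 RNA-seq libraries of the series. The APOE44 cells carry the genotype tag 44 and stand for human APOE4, and the wild-type cells carry mouse Apoe; the mouse line, strain and age are not given in the labels. Every APOE44 library is tagged batch 1 and every wild-type library batch 2, so genotype and batch coincide and cannot be told apart in this comparison. Each group held 3 female and 3 male libraries. The cells were purified, grown in media made for human glia and left untreated. RIN, a score of RNA integrity, was 9.7 to 10. Values within batch 1 came from 6 APOE33 microglia libraries (4 female, 2 male) and 4 Apoe knock-out microglia libraries (1 female, 3 male). Astrocytes, 6 libraries of APOE44 in batch 1 and 6 of wild type in batch 2, served as a second cell type. The labels do not say whether replicates came from separate animals or cultures, so p-values measure only the spread between these libraries, which may be technical.

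Microglia are the resident macrophages of the brain. In tissue they express surveillance genes such as P2ry12 and Tmem119, which fall in culture, and in disease models they gain another set that includes Apoe, Lpl and Cst7. APOE carries lipids between cells of the brain, and its human allele APOE4 is the major common genetic risk factor for late-onset Alzheimer disease.

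Total counts ran from 86313947 to 116396632 per library. Of the 18 markers of microglia and macrophages, all 18 passed the filter on low counts. Csf1r, the receptor that microglia need for survival, was at 2387 to 3249 CPM (the count scaled by library size) in APOE44 and 1705 to 2199 CPM in wild type. The T cell genes Cd3e and Cd3g were at 0 in all 12 libraries, which allows up to 3 counts each. On the first principal component of the 22 microglia libraries (30.9% of the variance) the wild-type libraries lay between -77.9 and -57.9 and the APOE44 libraries between 29.5 and 46.3. On the second (16.1%), APOE44 libraries 3 and 6 stood apart at 60.8 and 50.3, against at most 14.1 in the other APOE44 libraries. The summed level of all 15 listed neuron markers, those under the filter included, was 8.83 and 6.86 CPM in these 2 libraries. In the other APOE44 libraries it was 1.57 to 2.25 CPM. APOE33 library 2 was alike, at 61.7 on the second component and 8.94 CPM of these markers. It was kept in the fit and in the APOE33 values below. Some results that rest on APOE44 libraries 3 and 6 are given with and without these 2 libraries, and others only with them.

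**Figure D1:**
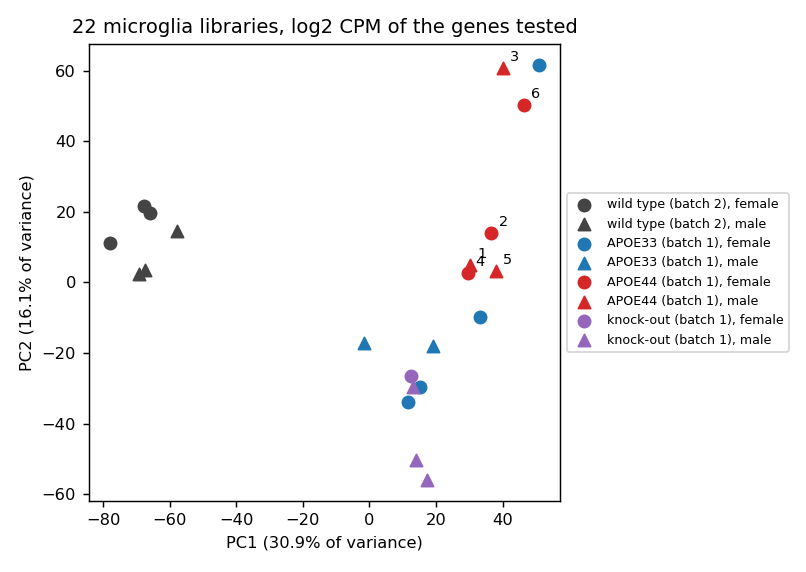
First and second principal components of log2 CPM in the 22 microglia libraries, with the percent of variance on each axis. Colours give genotype and batch, shapes give sex and numbers mark APOE44 replicates. The 6 wild-type libraries lie to the left of all 16 libraries of batch 1. APOE44 libraries 3 and 6 and APOE33 library 2 lie high on the second axis.

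Of 18079 genes tested, 8209 (45.4%) differed between APOE44 and wild-type microglia at an adjusted p under 0.05 by edgeR's quasi-likelihood test with Benjamini-Hochberg adjustment, the test behind every adjusted p here. Of these, 4024 (22.3% of those tested) were higher and 4185 (23.1%) lower in APOE44. These shares of all genes tested are the background for the list counts below. Most differences were small: 60.3% of the called genes differed by less than 1.5-fold, while 784 were at least 2-fold higher and 1445 at least 2-fold lower. The groups did not overlap for 5128 genes (28.4%). When a fold above 1.5 was tested for, 1667 genes passed, 568 higher and 1099 lower, and males alone gave 3912 called genes. Within batch 1, APOE44 against APOE33 called 224 genes (1.24%). That contrast shares the 6 APOE44 libraries, and its values stand beside those of single genes below.

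**Figure D2:**
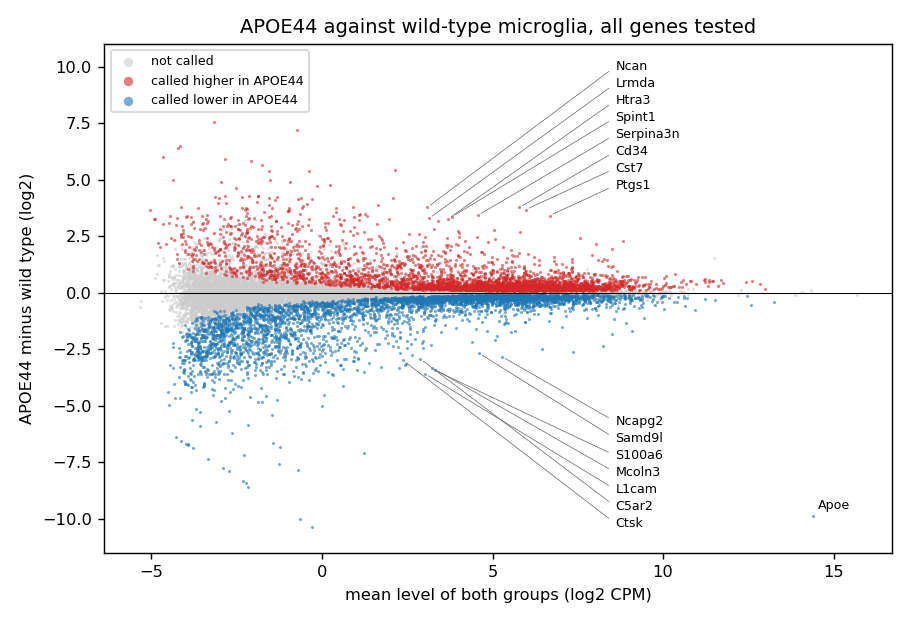
Log2 difference between APOE44 and wild-type microglia (vertical axis) against mean level (log2 CPM, horizontal axis) for the 18079 genes tested, with genes called higher in red and lower in blue. Apoe lies alone at the lower right, at -9.88, and most called genes lie close to 0.

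The mouse Apoe gene (ENSMUSG00000002985.16, GRCm38 chr7:19696109-19699188, minus strand) checks the genotype labels only for the loss of mouse Apoe. Counts are given for mouse genes alone, so the human allele was not checked. Its level was 37893 to 50842 CPM in wild type (median 42224) and 39.2 to 50.8 CPM in APOE44 (median 45.9). Every APOE44 library lay far below every wild-type library, and the log2 difference was -9.88 (SE 0.33, adjusted p = 4.15e-14). APOE33 libraries held 37.8 to 68.9 CPM and knock-out libraries 6.24 to 23.2 CPM, and APOE44 minus APOE33 was -0.04 (adjusted p = 0.962). Apoe took 3.90% to 5.02% of all wild-type counts.

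The largest rises among genes with a mean of at least 5 CPM included Ptgs1, the constitutive cyclooxygenase of prostaglandin synthesis. Its level was 162 to 219.8 CPM in APOE44 (median 183) and 12.5 to 31.9 CPM in wild type (median 15.4). All APOE44 libraries lay above all wild-type libraries, by 3.41 (adjusted p = 1.83e-09, SE 0.22), and APOE33 (183 to 255 CPM) and knock-out libraries (165 to 318 CPM) were high too. Cst7, a cathepsin inhibitor known from disease-associated microglia, ran from 65.5 to 208 CPM in APOE44 (median 107) and from 2.34 to 28.1 CPM in wild type (median 4.90). The groups did not overlap, and the gene rose by 3.67 (adjusted p = 1.46e-05, SE 0.51). In males alone the difference was 2.96 (adjusted p = 0.0752), and APOE44 minus APOE33 was -0.67 (adjusted p = 0.567). Cd34, a surface sialomucin, rose by 3.77 (adjusted p = 1.47e-06, SE 0.43), from 3.66–15.7 CPM to 57.7–178 CPM, without overlap; knock-out libraries held 11.7 to 32.3 CPM. The membrane protease inhibitor Spint1 rose by 3.37 (adjusted p = 5.14e-08) and the secreted protease Htra3 by 3.27 (adjusted p = 3.27e-06), both without overlap.

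Ncan, a brain proteoglycan, and Serpina3n, a secreted protease inhibitor of reactive glia, lost their call without the 2 libraries that stood apart. Ncan spread from 2.78 to 36.2 CPM in APOE44 and from 0.162 to 2.98 CPM in wild type. The groups overlapped; the difference was 3.78 (SE 1.21, adjusted p = 0.0164) and 2.44 (adjusted p = 0.129) without APOE44 libraries 3 and 6. Serpina3n was at 13.8 to 111 CPM in APOE44 and 1.72 to 7.75 CPM in wild type, a difference of 3.42 (SE 0.94, adjusted p = 0.00601), and 2.08 (adjusted p = 0.0726) without these libraries.

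Among the largest falls, L1cam, a neural cell adhesion molecule, fell by 3.59 log2 units (adjusted p = 1.46e-08, SE 0.29), from 6.72–23.4 CPM in wild type to 0.657–1.90 CPM in APOE44. S100a6, a calcium-binding protein, fell by 3.43 (adjusted p = 3.6e-06) and Mcoln3, an endolysosomal cation channel, by 3.31 (adjusted p = 7.25e-06). None of these 3 genes had overlapping groups. Samd9l, an interferon-inducible gene outside the interferon list described below, fell by 2.67 (adjusted p = 2.92e-06), from 32.9–47.7 CPM to 1.6–9.42 CPM. C5ar2, a receptor for the complement fragment C5a, fell by 2.93 log2 units (adjusted p = 5.57e-10, SE 0.19), from 12.1–14.3 CPM to 1.05–2.49 CPM. Neither gene's groups overlapped. Ctsk, a collagen-degrading cathepsin, had a median of 8.79 CPM in wild type and 0.455 CPM in APOE44, a difference of -2.99 (SE 0.68, adjusted p = 0.00154). Its groups overlapped, with 1 APOE44 library at 5.02 CPM, and in males alone the difference was -1.62 (adjusted p = 0.361).

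For Ncapg2, Lrmda and St7, APOE44 differed from APOE33 within batch 1 as well as from wild type. Ncapg2 (GRCm38 chr12:116405402-116463731, plus strand), a subunit of the condensin II complex that compacts chromosomes, was at 8.45 to 11.7 CPM in APOE44 and 56.1 to 75.2 CPM in wild type, and fell by 2.83 log2 units (adjusted p = 8.46e-17, SE 0.08). APOE33 libraries (56.4 to 62.5 CPM) lay within the wild-type range and knock-out libraries (81.2 to 91.6 CPM) above it. Both lay far from APOE44, and APOE44 minus APOE33 was -2.65 (adjusted p = 3.43e-16).

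Lrmda (GRCm38 chr14:22019712-23056085, plus strand), a leucine-rich repeat gene of melanocyte differentiation, was at 15.3 to 17 CPM in APOE44 and 1.38 to 1.86 CPM in wild type, and rose by 3.29 (adjusted p = 7.55e-17, SE 0.09). APOE33 libraries were low, at 1.32 to 2.11 CPM (APOE44 minus APOE33 3.17, adjusted p = 1.65e-16), and knock-out libraries were high, at 19.6 to 21.6 CPM.

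St7 (GRCm38 chr6:17692933-17943025, plus strand) was at 5.44 to 6.03 CPM in APOE44 and 2.32 to 2.82 CPM in wild type, and rose by 1.22 (adjusted p = 1.37e-09, SE 0.09). APOE33 (2.44 to 3.01 CPM) and knock-out (1.58 to 2.32 CPM) lay below all APOE44 libraries, and APOE44 minus APOE33 was 1.07 (adjusted p = 5.59e-08).

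In astrocytes the APOE44-minus-wild-type values were 0.17 for Ncapg2, 0.12 for Lrmda and -0.23 for St7. The difference between the cell types was -3.00 for Ncapg2 (SE 0.12, adjusted p = 5.93e-13), 3.16 for Lrmda (adjusted p = 1.47e-06) and 1.45 for St7 (adjusted p = 4.63e-11).

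**Figure D3:**
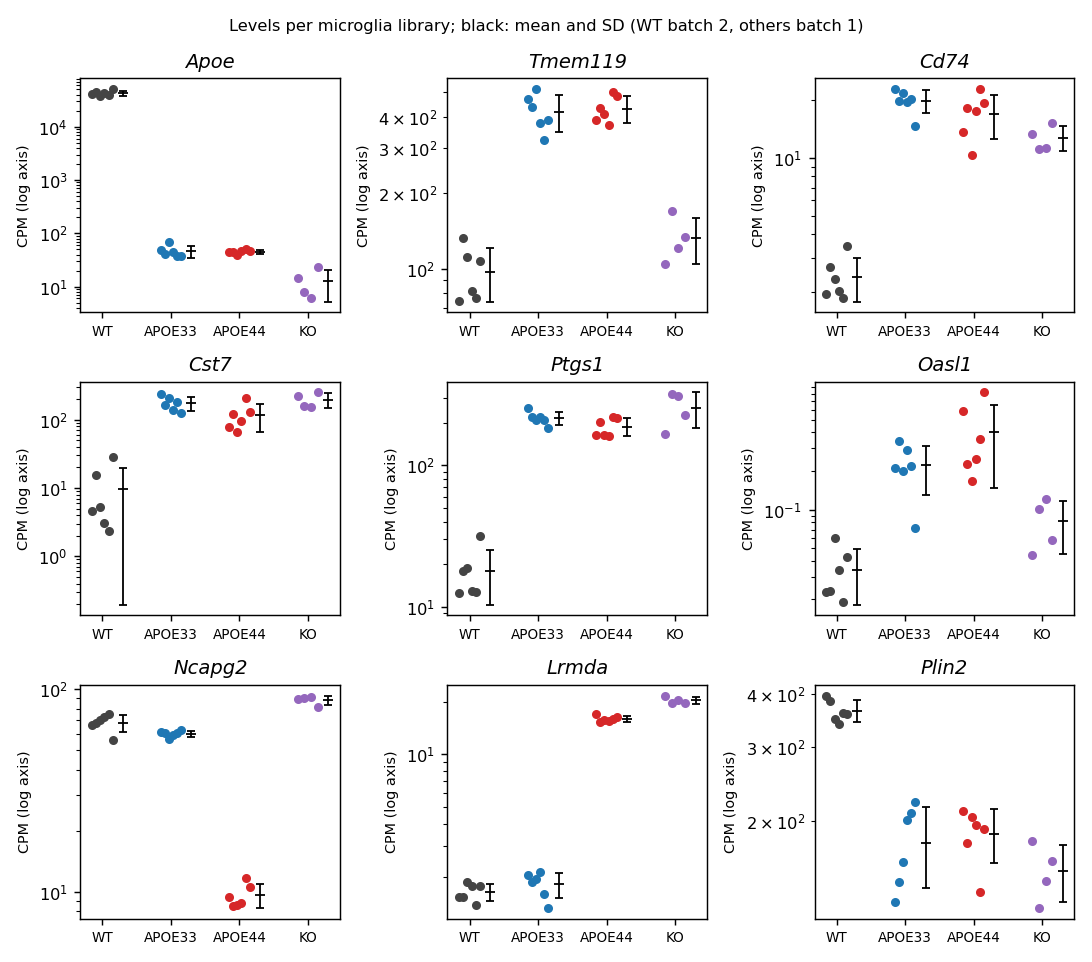
CPM per library (log axis) of 9 genes in the 4 microglia genotypes; points are libraries and black marks with bars the mean and SD, the lower bar being shortened where it would reach 0. Wild type is batch 2 and the others batch 1; Ncapg2 is low in APOE44 alone, and Lrmda is high in APOE44 and knock-out.

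Interferon-induced genes were higher in APOE44 almost throughout the list. Type I interferons are antiviral cytokines whose signal reaches response elements in the promoters of target genes. Of 37 members tested, 34 rose, 0 fell and 3 did not pass (Ifi207, Ifih1 and Sp100). The list's median was 1.21, against -0.01 over all genes tested. Without APOE44 libraries 3 and 6, 29 of 37 were called higher, in females alone 18, in males alone 20, and 18 when a fold above 1.5 was tested for. The list's median was 0.45 for APOE33 minus wild type, 0.58 for knock-out minus wild type and 0.69 for APOE44 minus APOE33, where 1 member was called.

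Oasl1, an interferon-induced regulator of Irf7 translation, was at 0.166 to 0.816 CPM in APOE44 and 0.0192 to 0.0599 CPM in wild type. The groups did not overlap, though both were low, and the gene rose by 3.53 (adjusted p = 2.67e-06, SE 0.46). Ifi27l2a rose by 2.66 (adjusted p = 2.82e-06, SE 0.32), from 3.17–5.96 CPM to 14.9–37.9 CPM; it was the member called against APOE33 (1.30, adjusted p = 0.0479), whose libraries held 2.95 to 15.4 CPM. Irf7, the transcription factor that amplifies the response, rose by 2.11 (adjusted p = 1.8e-05, SE 0.30), from a median of 4.36 CPM to 19.9 CPM. The APOE44 libraries differed among themselves. The summed level of the list was 2147, 1523, 1968, 1447, 1105 and 2222 CPM in APOE44 libraries 1 to 6, and 1041 to 1190 CPM in wild type. APOE44 library 5 lay within the wild-type range and the other 5 above it.

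The promoters of the list were searched for the core of the interferon-stimulated response element, GAAANNGAA on either strand (N is any base), in RefSeq windows (GRCm38.p6) from 250 bases before to 50 bases after each start site. Of the list's members, 27 had an entry, with 33 windows. The core was present in 18 of these windows (54.5%), against 2812 of 32851 windows (8.56%) in the whole table. The members were listed as interferon-induced genes, so a high share of this core is no result of these data. Other motifs were searched too. The AP-1 motif TGANTCA was in 8 of the 33 windows (24.2%), against 7.81% in the whole table. The sterol regulatory core TCACNCCAC and the E-box CACGTG were in 0. A match is a description of letters, not of binding. The 250 bases before 3 start sites are printed to show how members differ, 5′ to 3′ on the strand of the gene, with matches in capitals; matches may overlap. Oasl1 has the smallest adjusted p of the list, and Ifit3, of a family of RNA-binding antiviral proteins, and Isg15, a ubiquitin-like modifier, were chosen for their matches after the values were seen.
Oasl1 (chr5:114922990-114923239, plus strand): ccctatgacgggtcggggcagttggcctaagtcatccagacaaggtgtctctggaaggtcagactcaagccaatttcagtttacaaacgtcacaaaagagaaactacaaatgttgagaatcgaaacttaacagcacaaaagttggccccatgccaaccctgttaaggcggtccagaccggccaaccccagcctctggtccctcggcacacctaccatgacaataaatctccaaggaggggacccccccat
Ifit3 (chr19:34583279-34583528, plus strand): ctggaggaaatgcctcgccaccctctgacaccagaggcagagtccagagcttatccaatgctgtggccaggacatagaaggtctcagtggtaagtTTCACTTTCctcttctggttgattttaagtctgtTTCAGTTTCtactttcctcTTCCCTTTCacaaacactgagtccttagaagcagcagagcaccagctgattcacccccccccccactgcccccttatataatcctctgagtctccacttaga
Isg15 (chr4:156200819-156201068, minus strand): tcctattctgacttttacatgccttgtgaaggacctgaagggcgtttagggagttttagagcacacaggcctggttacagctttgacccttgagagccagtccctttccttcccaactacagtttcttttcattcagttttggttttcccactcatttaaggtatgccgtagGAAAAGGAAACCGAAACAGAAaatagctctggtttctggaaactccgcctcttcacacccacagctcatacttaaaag
The Oasl1 window holds no match. The Ifit3 matches begin 155, 121 and 102 bases before the start site and read on the opposite strand, and the Isg15 matches overlap in 1 run and begin 78, 72 and 66 bases before it. Ifit3 was at 30.4 ± 18.2 CPM in APOE44 and 6.38 ± 1.59 CPM in wild type (SD, n = 6 each) and rose by 2.30 (SE 0.40, adjusted p = 0.000136). Isg15 was at 10.4 ± 4.59 CPM in APOE44 and 4.49 ± 0.567 CPM in wild type (SD, n = 6 each) and rose by 1.22 (SE 0.25, adjusted p = 0.000642). Ifit3 and its close copy Ifit3b can share reads, so the split between them is uncertain.

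Antigen presentation genes were higher in APOE44 than in wild type, and by median in APOE33 and knock-out too. MHC class I molecules show peptides from inside the cell, and class II molecules show peptides from engulfed material. Of the class I list, 13 of 16 rose, 0 fell and 3 did not pass, with a median log2 difference of 0.28. None passed when a fold above 1.5 was tested for. The class I median was 0.22 for APOE33 minus wild type and 0.45 for knock-out minus wild type. Tapbp, which helps load peptides, rose by 0.67 (adjusted p = 5.84e-07, SE 0.08), and B2m, the shared light chain, by 0.38 (adjusted p = 8.24e-06). The nonclassical class I gene H2-T23 rose by 0.68 (adjusted p = 1.11e-06). Of the class II list, 10 of 14 rose, 0 fell and 4 did not pass, with a median log2 difference of 0.90. The class II median was 0.95 for APOE33 minus wild type and 0.79 for knock-out minus wild type. For APOE44 minus APOE33 it was -0.14, with 0 members called. Cd74, the invariant chain, was at 10.4 to 22.8 CPM in APOE44 and 1.87 to 3.47 CPM in wild type. The groups did not overlap and the gene rose by 2.82 (adjusted p = 1.54e-09, SE 0.19); APOE33 was at 14.7 to 22.7 CPM. H2-DMa, a peptide exchange chaperone, rose by 1.75 (adjusted p = 4.77e-09), and its partner chain H2-DMb1 by 0.85 (adjusted p = 6.87e-08). The classical class II chain H2-Ab1 rose at a low level, 2.08 CPM in APOE44 and 0.837 CPM in wild type on average (log2 difference 1.31), and H2-Aa did not pass.

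**Figure D4:**
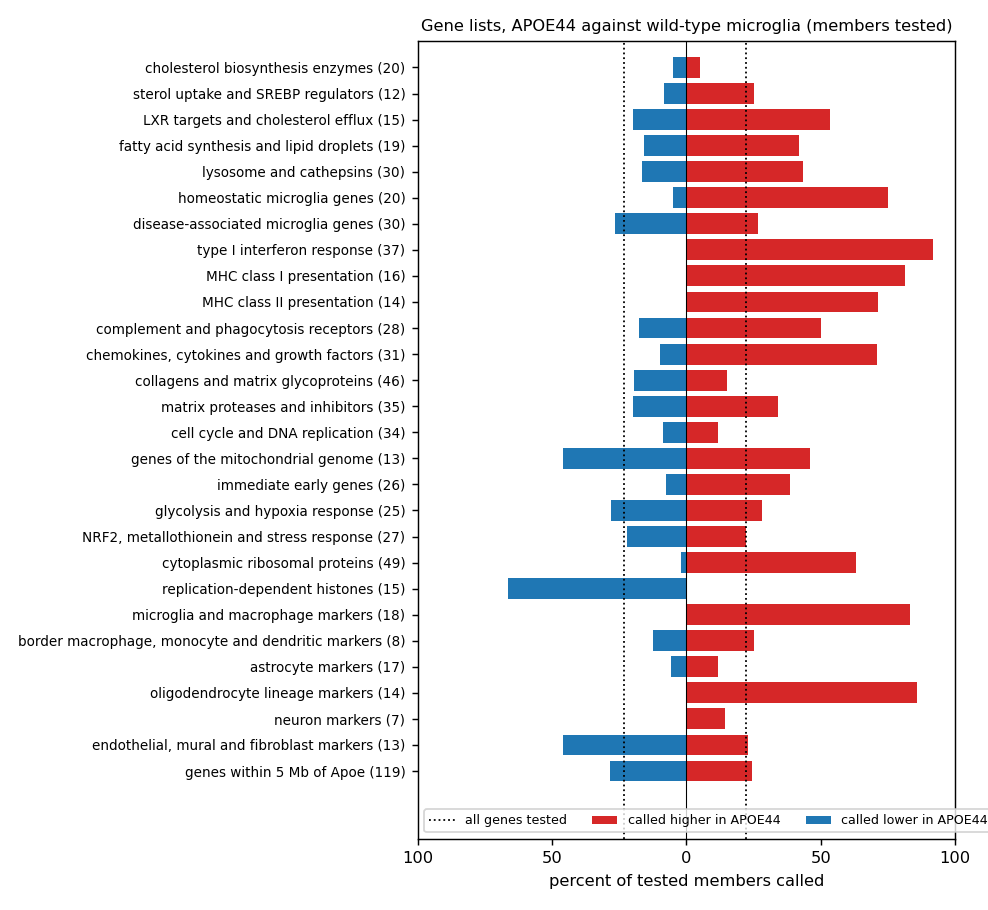
Percent of tested members of each gene list called higher (right, red) or lower (left, blue) in APOE44 against wild-type microglia, with the number tested in parentheses. Dotted lines mark the shares of all genes tested, 22.3% and 23.1%; the interferon list reaches farthest to the right, and the histone list farthest to the left.

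Of the homeostatic microglia genes, 15 of 20 rose, 1 fell and 4 did not pass, with a median log2 difference of 0.53. This list's median was 0.60 for APOE33 minus wild type and 0.20 for knock-out minus wild type. Tmem119 was at 369 to 501 CPM in APOE44 (median 421) and 74.7 to 133 CPM in wild type (median 94.7). The groups lay apart, and the gene rose by 2.15 (adjusted p = 2.23e-09, SE 0.15); APOE33 libraries were as high, at 323 to 514 CPM, and knock-out libraries were at 104 to 169 CPM. P2ry13, a purinergic receptor, rose by 1.89 (adjusted p = 2.88e-06, SE 0.23), from a median of 15.9 CPM to 69.5 CPM, and its relative P2ry12 by 1.73. Sall1, a transcription factor of microglial identity, rose by 1.79, and the TGF-beta receptor Tgfbr1 was the 1 that fell (-0.23). Several of the microglia and macrophage markers are in the homeostatic list too. Of these markers, 15 of 18 rose, 0 fell and 3 did not pass, with a median log2 difference of 0.49. For the same markers the median was 0.52 for APOE33 minus wild type and 0.40 for knock-out minus wild type. Their summed level was 28770 to 34820 CPM in APOE44 and 21470 to 25640 CPM in wild type, without overlap. C1qb, a chain of complement C1q, rose by 0.56 (adjusted p = 6.14e-07). In bulk RNA, more cells of a type and more RNA per cell cannot be told apart.

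Of the disease-associated microglia genes, 8 of 30 rose, 8 fell and 14 did not pass, with a median log2 difference of 0.04. Both shares, 26.7% each, were near those of all genes tested, 22.3% higher and 23.1% lower. Besides Cst7, Axl, a receptor for dying cells, rose by 1.51 (adjusted p = 3.11e-07, SE 0.15), from 139–198 CPM to 374–572 CPM. Csf1, a ligand of Csf1r, rose by 1.6 (adjusted p = 2.71e-08) and the chemokine Ccl6 by 1.22 (adjusted p = 5.95e-08). None of these 3 overlapped between groups. The galectin Lgals3 was at 440.3 CPM in APOE44 and 963 CPM in wild type on average (-1.13), and the lysosomal glycoprotein Gpnmb had a difference of -0.54. Trem2, a lipid receptor of this state, was at 1120 CPM in APOE44 and 1075 CPM in wild type on average and did not pass.

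Of the chemokines, cytokines and growth factors, 22 of 31 rose, 3 fell and 6 did not pass, with a median log2 difference of 1.07. Those that fell were Il10, Igf1 and Pdgfb. The monocyte attractant Ccl2 was at 3.89 CPM in APOE44 and 0.359 CPM in wild type on average, and the interleukins Il1a and Il1b rose by 3.05 and 2.10. Ccl9 rose from 22.1–32.0 CPM to 60.3–73.9 CPM, without overlap, by 1.37 (adjusted p = 5.29e-09, SE 0.10). The list's median was 0.67 for APOE33 minus wild type and -0.11 for knock-out minus wild type. Of the complement and phagocytosis genes, 14 of 28 rose, 5 fell and 9 did not pass, with a median log2 difference of 0.28. The complement component C3 rose by 1.47 (adjusted p = 8.8e-08, SE 0.14), from 65.6–122 CPM to 214–269 CPM. The C5a receptor C5ar1 fell by 1.10 log2 units (adjusted p = 4.77e-09, SE 0.08), from 259–347 CPM to 121–152 CPM. Neither gene's groups overlapped.

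Of the cholesterol synthesis enzymes, 1 of 20 rose, 1 fell and 18 did not pass, with a median log2 difference of -0.24. The sterol reductase Tm7sf2 had a difference of 0.46 (SE 0.10, adjusted p = 0.000484) with overlapping groups. Fdps, which makes farnesyl diphosphate, had -0.60 (SE 0.24, adjusted p = 0.0492), also with overlap, and this call was lost in 18 of the alternative settings. Of the 20 enzymes, 17 had a negative value, the lowest being -0.68 for Sqle. The median of the same list was -0.24 for APOE33 minus wild type and 1.14 for knock-out minus wild type. Of the sterol uptake and SREBP genes, 3 of 12 rose, 1 fell and 8 did not pass, with a median log2 difference of 0.12. Mylip, the ligase that degrades the LDL receptor, rose by 0.74 (adjusted p = 1.45e-05, SE 0.11), from 90.7–147 CPM to 167–213 CPM. Srebf1, a regulator of fatty acid synthesis, rose by 0.52 (adjusted p = 0.000125). Both had groups that did not overlap. Insig2, which retains SREBPs in the endoplasmic reticulum, had 0.13 (SE 0.04, adjusted p = 0.00702) with overlap.

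LXRs are nuclear receptors that respond to oxidised sterols. Of the LXR target and efflux genes, 8 of 15 rose, 3 fell and 4 did not pass, with a median log2 difference of 0.30. The cholesterol exporter Abca1 rose by 0.48, and the phospholipid-remodelling enzyme Lpcat3 by 0.48 (adjusted p = 3.6e-06, SE 0.06). Rxra, the partner receptor of LXRs, rose by 0.30 (adjusted p = 6.73e-06). The lipase Lpl fell by 0.74 log2 units (adjusted p = 5.53e-06, SE 0.10), from 2208–2569 CPM to 1229–1701 CPM, without overlap.

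Of the fatty acid and lipid droplet genes, 8 of 19 rose, 3 fell and 8 did not pass, with a median log2 difference of 0.17. Plin2, a coat protein of lipid droplets, was at 135 to 210.4 CPM in APOE44 (median 193) and 340.1 to 397 CPM in wild type (median 360.4). The groups lay apart, and the gene fell by 0.98 log2 units (adjusted p = 6.25e-06, SE 0.13); APOE33 (128 to 221 CPM) and knock-out (124 to 179 CPM) were low too. Plin3, another droplet coat protein, fell by 0.45 (adjusted p = 6.02e-08), and the desaturase Scd2 rose by 1.68. The lipase Lipe rose by 0.44 (adjusted p = 2.46e-07).

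Of the lysosome genes, 13 of 30 rose, 5 fell and 12 did not pass, with a median log2 difference of 0.13. The sialidase Neu1 rose by 0.48 (adjusted p = 9.44e-10, SE 0.03), from 79.0–86.5 CPM to 112–124 CPM, the cathepsin Ctsh by 0.69 (adjusted p = 9.88e-08) and Grn, the gene of progranulin, by 0.46 (adjusted p = 3.47e-06). All 3 had groups that did not overlap.

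Of the collagens and matrix glycoproteins, 7 of 46 rose, 9 fell and 30 did not pass, with a median log2 difference of 0.00. The shares, 15.2% higher and 19.6% lower, were below those of all genes tested, 22.3% and 23.1%. Thbs1, a secreted glycoprotein that activates TGF-beta, rose by 2.12 (adjusted p = 3.47e-05, SE 0.32), from 5.41–6.90 CPM to 15.8–42.7 CPM, and fibronectin, Fn1, by 1.19. Thbs2, a relative of Thbs1, rose by 2.15 (adjusted p = 3.17e-06). The fibrillar collagen gene Col1a2 was at 0.321 to 1.04 CPM in wild type and 0 to 0.0563 CPM in APOE44. Col1a1 was at 0 in 5 of the 6 APOE44 libraries, the fibroblast gene Dcn in 4 and Lum in 6, against 0.250 to 0.974, 0.274 to 1.22 and 0.0426 to 0.116 CPM in wild type.

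Of the endothelial, mural and fibroblast markers, 3 of 13 rose, 6 fell and 4 did not pass, with a median log2 difference of -0.54. Pecam1, an adhesion molecule of endothelium and of blood cells, was at 1.91 to 4.07 CPM in APOE44 and 0.144 to 0.522 CPM in wild type and rose without overlap by 3.20 (adjusted p = 1.29e-08, SE 0.27). Cdh5, the endothelial cadherin, rose by 1.38. The receptor Pdgfra rose by 4.16 with overlap, at 0.145 to 3.90 CPM in APOE44 and 0.0232 to 0.393 CPM in wild type. Without APOE44 libraries 3 and 6, 2 of 13 were called higher and 6 lower. Other endothelial members were lower in APOE44. Flt1 had a median of 150 CPM in APOE44 and 206 CPM in wild type, and Kdr 1.93 and 2.85 CPM. The summed level of the 16 listed was 246 to 319 CPM in APOE44 and 252 to 342 CPM in wild type. Of this, Flt1 made up 124 to 173 CPM and 167 to 219 CPM, and Cspg4 101 to 147 CPM and 43.8 to 120 CPM. The part of these markers in the matrix results was not tested.

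Of the matrix proteases and inhibitors, 12 of 35 rose, 7 fell and 16 did not pass, with a median log2 difference of 0.02. Adam10, a protease that sheds surface proteins, rose by 0.74 (adjusted p = 8.78e-10, SE 0.05), from 323–413 CPM to 558–637 CPM. Plaur, the urokinase receptor, fell by 1.28 log2 units (adjusted p = 1.24e-08, SE 0.10). Neither gene's groups overlapped. The gelatinase Mmp2 rose by 1.13 (adjusted p = 1.28e-07).

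Markers of other brain cells were counted as well; summed levels cover every listed marker, also those under the filter on low counts. Of the oligodendrocyte lineage markers, 12 of 14 rose, 0 fell and 2 did not pass, with a median log2 difference of 3.37; without APOE44 libraries 3 and 6, 8 of 14 were called higher. The summed level of the 16 listed was 268 to 346 CPM in APOE44 and 156 to 227 CPM in wild type. Mbp, a myelin protein, was at 102 to 117 CPM and 71.9 to 81.5 CPM in APOE44 and wild type, and Mag, a myelin-associated glycoprotein, rose by 1.51 (adjusted p = 3.32e-08). Mobp and Mog were each at 0 in 3 of the 6 wild-type libraries.

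Of the astrocyte markers, 2 of 17 rose, 1 fell and 14 did not pass, with a median log2 difference of 0.46; the share that rose, 11.8%, was below that of all genes tested. Aldh1l1, a folate enzyme, fell by 0.83 (adjusted p = 0.000449). The summed level of the 18 listed was 1066 to 1143 CPM in APOE44 and 761 to 953 CPM in wild type, of which Glul, glutamine synthetase, made up 946 to 1071 CPM and 695 to 862 CPM.

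Of the neuron markers, 1 of 7 rose, 0 fell and 6 did not pass, with a median log2 difference of 1.73; here too the share that rose, 14.3%, was below that of all genes. Elavl3 was the 1 called, at 3.75 (SE 1.10, adjusted p = 0.0108), and 2.60 (adjusted p = 0.0584) without APOE44 libraries 3 and 6. Of the border macrophage, monocyte and dendritic markers, 2 of 8 rose, 1 fell and 5 did not pass. Their median log2 difference was 0.07, and the share that rose, 25%, was near that of all genes tested, 22.3%. With APOE44 libraries 3 and 6 left out, 1 was called higher and 0 lower. F13a1 had 2.07 (SE 0.73, adjusted p = 0.0269), and 1.22 (adjusted p = 0.219) without those libraries. Pf4, a chemokine of border macrophages, had 0.93 (SE 0.20, adjusted p = 0.000999) with overlapping groups. Ms4a7, the most abundant of these markers, was lower without overlap, at 797 to 1000 CPM in APOE44 and 1014 to 1097 CPM in wild type. The summed level of the 14 listed was 975 to 1261 CPM in APOE44 and 1127 to 1302 CPM in wild type. None of the 3 granulocyte and lymphocyte markers and 1 erythrocyte marker tested was called. The part of other cells in the results above was not tested.

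Of the cell cycle genes, 4 of 34 rose, 3 fell and 27 did not pass, with a median log2 difference of 0.45, and 30 of 34 had a positive value. The shares called, 11.8% higher and 8.82% lower, were below those of all genes tested, 22.3% and 23.1%. The count called higher was 15 when the 12 libraries alone were fitted, 16 with the replicate block, 12 in males alone, 7 with RIN as a term, 2 in females alone and 1 when a fold above 1.5 was tested for. Ncapg2 and the replication genes Mcm6 (-0.57, adjusted p = 6.99e-06) and Pcna (-0.33, adjusted p = 2.43e-05) were those that fell. Replication-dependent histones have transcripts that lack a poly(A) tail. Of these, 0 of 15 rose, 10 fell and 5 did not pass, with a median log2 difference of -0.84. The histone median was -1.01 for APOE33 minus wild type and -0.78 for knock-out minus wild type. The linker histone Hist1h1d fell by 1.90 log2 units (adjusted p = 2.62e-07, SE 0.21), from 1.25–1.97 CPM to 0.296–0.657 CPM, without overlap. The core histones Hist1h2bc and Hist1h2bg fell by 0.99 (adjusted p = 6.7e-06) and 0.80 (adjusted p = 0.0003).

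Of the immediate early genes, which respond within minutes to stimuli and handling, 10 of 26 rose, 2 fell and 14 did not pass, with a median log2 difference of 0.35. Nr4a3, a nuclear receptor, rose by 2.74 (adjusted p = 8.43e-08, SE 0.27), from 0.301–0.874 CPM to 1.86–4.08 CPM, whereas Fos had a difference of -0.86. Ier3 rose by 2.01 (adjusted p = 6.52e-06) and Fosl2, of the AP-1 family, by 0.51 (adjusted p = 1.87e-05).

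Of the glycolysis and hypoxia genes, 7 of 25 rose, 7 fell and 11 did not pass, with a median log2 difference of 0.00. Their shares, 28% each, were near those of all genes tested, 22.3% higher and 23.1% lower. The oxygen-sensing hydroxylase Egln3 rose by 1.81 (adjusted p = 3.91e-05) and the phosphofructokinase Pfkp fell by 1.15 (adjusted p = 4.6e-07). Pfkfb4, which sets the level of a glycolysis activator, rose by 0.57 (adjusted p = 4.41e-07). Of the NRF2 and stress genes, 6 of 27 rose, 6 fell and 15 did not pass, with a median log2 difference of 0.05. Here the shares, 22.2% each, were near those of all genes too. Herpud1, of the endoplasmic reticulum stress response, rose by 0.85 (adjusted p = 1.71e-08) and the chaperone Hsph1 fell by 0.77 (adjusted p = 3.91e-08). Glutathione reductase, Gsr, rose by 0.62 (adjusted p = 3.91e-08).

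Gene types differed as well. Of 1676 processed pseudogenes tested, 976 were lower and 86 higher in APOE44, with a median of -1.13; of 13585 protein-coding genes, 3691 were higher and 2847 lower, with a median of 0.03. The pseudogene median was -0.93 for APOE33 minus wild type, -1.12 for knock-out minus wild type, -0.20 for APOE44 minus APOE33 and -0.59 for APOE44 minus wild type in astrocytes. Pseudogenes took 0.223% to 0.230% of counts in APOE44 and 0.279% to 0.337% in wild type, without overlap. With protein-coding genes alone in the table, 6743 of 13579 genes were called.

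Of the cytoplasmic ribosomal protein genes, 31 of 49 rose, 1 fell and 17 did not pass, with a median log2 difference of 0.23; none passed when a fold above 1.5 was tested for. Rpl18 rose by 0.58 (adjusted p = 8.47e-08), Rpl30 by 0.45 (adjusted p = 8.47e-08) and Rps14 by 0.41 (adjusted p = 3.53e-07). Near-identical processed copies of these genes can share reads with them, so the values are uncertain.

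Of the protein genes of the mitochondrial genome, 6 of 13 rose, 6 fell and 1 did not pass, with a median log2 difference of 0.10. Those that fell had at most 9.24 CPM in wild type on average, such as mt-Co2 (7.30 to 10.9 CPM in wild type and 1.81 to 2.49 CPM in APOE44), and those that rose at least 283 CPM. The low genes mt-Co3 and mt-Atp6 fell by 2.22 (adjusted p = 3.79e-08) and 1.88 (adjusted p = 2.92e-07). Nuclear copies of mitochondrial genes can share their reads, so the low ones are uncertain. Against APOE33, 7 of the 13 were higher, where 1.24% of all genes tested were called in either direction.

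**Figure D5:**
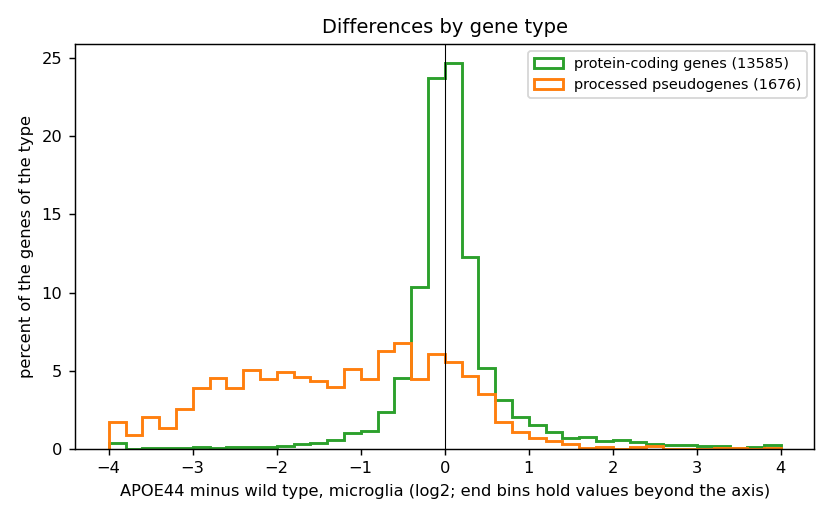
Distribution of the log2 difference between APOE44 and wild-type microglia, in percent of 13585 protein-coding genes and 1676 processed pseudogenes tested, with values beyond the axis put in the end bins. Protein-coding genes centre near 0, and pseudogenes are shifted lower, with a median of -1.13.

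Genes near Apoe were counted separately. Within 5 Mb, 119 genes were tested, of which 29 were higher and 34 lower (52.9%), against 45.4% of all other genes. Besides Apoe, Ccdc61 and C5ar2 had the smallest adjusted p there. Ccdc61 (GRCm38 chr7:18890883-18910415, minus strand), a centrosomal gene, fell by 1.72 log2 units (adjusted p = 3.46e-11, SE 0.10), from 10.3–11 CPM to 2.54–3.90 CPM; APOE33 (2.89 to 4.20 CPM) and knock-out (3.27 to 4.08 CPM) were low too.

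The same genotypes and batches were compared in astrocytes. The APOE44 astrocyte libraries differed in makeup. Of the counts from 1 to 9, 73.6% to 75.1% were even in libraries 1, 5 and 6, and 64.0% to 64.3% in 2, 3 and 4. Ribosomal, small nuclear and small nucleolar RNA took 0.148% to 0.216% and 0.428% to 0.903% of their counts. The part of this in the difference between cell types was not tested. Of 20851 genes tested, the APOE44-minus-wild-type difference differed between the cell types for 6883 (33%), being higher in microglia for 2772 (13.3%) and lower for 4111 (19.7%). This split differed between settings, for a reason that was not tested: RLE size factors gave 3311 higher and 3227 lower, and leaving out any 1 microglia library gave 4039 to 4526 higher and 2099 to 2414 lower. The median over all genes, -0.04 as reported, was 0.07 to 0.09 without 1 of these libraries.

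Errfi1, a feedback inhibitor of EGF receptor signalling, went from 25.8–30.9 CPM in wild-type to 50.7–63.4 CPM in APOE44 microglia, and from 44.4–51.9 CPM to 26.8–31.2 CPM in astrocytes. Its difference between the cell types was 1.73 (SE 0.08, adjusted p = 5.65e-12), with opposite directions. Gmfg, an actin regulator of blood cells, rose from 13.4–17.5 CPM to 59.0–67.7 CPM in microglia and differed from astrocytes by 2.15 (adjusted p = 6.74e-12). Fam20c, a kinase of secreted proteins, differed by 1.10 (adjusted p = 2.31e-11).

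Anxa2, a membrane-binding annexin, fell from 164–219.8 CPM to 57.9–80.2 CPM in microglia, and was at 165 to 173 CPM in wild-type and 196 to 224 CPM in APOE44 astrocytes. The difference was -1.83 (SE 0.08, adjusted p = 6.27e-13). Flot2 of membrane rafts had -0.89 (adjusted p = 7.94e-12) and Frmd8, a partner of the iRhom proteins, -0.71 (adjusted p = 5.86e-12).

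Between females and males, the APOE44-minus-wild-type difference was called for 0 of 17936 genes (0%) by edgeR's quasi-likelihood test, with 625 genes at an unadjusted p under 0.05, and for 3 genes by DESeq2. With 3 libraries per sex and genotype, this does not show that the sexes respond alike. Apoe differed by -9.79 in females and -9.98 in males.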

How the data were processed

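RNA-seq counts were analysed from 44 libraries of mouse microglia and astrocytes. The deposited table holds raw counts per gene for 54146 genes. Per the labels' protocols, total RNA was extracted in a single batch and sequenced in read pairs, and alignment with STAR 2.5.3a and counting with featureCounts are listed in the submitters' processing notes, beside edgeR 3.26.8 and DESeq2. No mouse genome build or strand setting is named in the sources used here. Of the low counts from 1 to 9, 66.3% to 68.3% were even in APOE44 and 70.1% to 72.6% in wild-type microglia. Gene names, types and positions came from GENCODE M21 (GRCm38), which matched 54079 identifiers. Where a symbol had more than 1 identifier, a list took the one with more counts.

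The main test was edgeR 4.0.16 (R 4.3.3), with TMM scaling, filterByExpr and a robust quasi-likelihood fit over all 22 microglia libraries, which share 1 estimate of spread, with genotype and sex as terms (17 residual degrees of freedom). CPM were computed here from the counts with TMM scaling. The SE is the size of the log2 difference divided by the square root of F. Differences between cell types were tested over 24 libraries, and between sexes over 12. Alternatives used DESeq2 1.42.0, other scalings, filters and terms, 1 sex, and libraries left out. The fit was tested on simulated data. No replicate pair in either group had identical counts.

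Named genes were Apoe, the 8 largest rises and 8 largest falls at a mean of at least 5 CPM, up to 3 called genes per list by adjusted p (2 for marker lists), and the 4 genes in each direction of the cell type difference. Of these, 2 genes are not reported here. Other list members given with a value were chosen after their values were seen. Members and lists were chosen with earlier results of these data known. Promoter windows came from RefSeq (GRCm38.p6).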

Additional observations from a re-analysis of the deposited data

Results flagged for a closer look

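In 12 of 186 groups of 6 libraries of named genes, 1 library lay far from the others by Dixon's criterion, which chance gives in about 1 in 20 groups. In wild type these were Ptgs1 at 31.9 CPM, S100a6 at 34.1 CPM, Tm7sf2 at 10.7 CPM, Csf1 at 7.34 CPM, Nr4a3 at 0.874 CPM and Elavl3 at 0.137 CPM, all above the rest, and Lpl at 2208 CPM, below it. In APOE44 they were Ctsk at 5.02 CPM, Grn at 3284 CPM, H2-DMb1 at 60.1 CPM, Hist1h1d at 0.657 CPM and F13a1 at 12.4 CPM, all above the rest.

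For 69 of the 93 named genes the log2 difference between APOE44 and wild type was not the same in microglia and astrocytes, by a test of the difference itself. The value in microglia minus that in astrocytes was positive for 44 genes: F13a1 (4.17), Nr4a3 (4.16), Ptgs1 (4.05), Cd34 (4.02), Ccl6 (4.0), Pecam1 (3.987), Ncan (3.23), Lrmda (3.16), Ccl9 (2.89), Htra3 (2.88), Cd74 (2.85), Oasl1 (2.64), P2ry13 (2.61), Thbs2 (2.43), Pf4 (2.33), Elavl3 (2.30), Gmfg (2.15), Ifi27l2a (2.04), Thbs1 (1.87), Spint1 (1.78), Ier3 (1.73), Errfi1 (1.73), St7 (1.45), Mmp2 (1.41), Axl (1.39), C3 (1.34), Csf1 (1.33), Egln3 (1.30), Fam20c (1.10), Glul (0.98), Herpud1 (0.97), H2-DMa (0.96), Adam10 (0.73), H2-DMb1 (0.64), Pfkfb4 (0.52), Lipe (0.52), Tm7sf2 (0.48), Rpl18 (0.44), Gsr (0.42), Rpl30 (0.42), B2m (0.35), Lpcat3 (0.31), Rps14 (0.31) and Neu1 (0.29). It was negative for 25: Col1a2 (-5.25), L1cam (-4.43), S100a6 (-3.16), Ncapg2 (-3.00), Ctsk (-3.00), Samd9l (-2.31), Hist1h1d (-2.21), Apoe (-2.01), Anxa2 (-1.83), Ccdc61 (-1.41), Plin2 (-1.12), Aldh1l1 (-1.10), mt-Atp6 (-0.99), Pfkp (-0.94), Hist1h2bc (-0.89), Flot2 (-0.89), Mcm6 (-0.86), mt-Co2 (-0.85), mt-Co3 (-0.82), Frmd8 (-0.71), Hsph1 (-0.69), Plin3 (-0.50), Lpl (-0.47), Pcna (-0.25) and Rxra (-0.17).

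Of these 69 calls, 9 were lost under some alternative. That of Spint1 was lost in 8 settings (adjusted p up to 0.141), with no filter on low counts and without wild-type astrocyte library 3, 4, 5 or 6 or APOE44 astrocyte library 1, 2 or 5. That of Ctsk was lost in 5 settings (adjusted p up to 0.0781), with no filter and without APOE44 microglia library 2, 4 or 6 or APOE44 astrocyte library 4. Those of Rxra and Pcna were lost without any 1 microglia library (adjusted p up to 0.862 and 0.193 over all settings), and that of mt-Co2 without any 1 but APOE44 library 3 (up to 0.115). That of mt-Co3 was lost in 7 settings (up to 0.0782), with no filter and without wild-type microglia library 1, 4, 5 or 6 or APOE44 microglia library 2 or 4. That of B2m was lost without wild-type astrocyte library 3 or 5 or APOE44 astrocyte library 1 (up to 0.0615), that of Lpl with no filter (0.0566) and that of Oasl1 with no sex term (0.0678).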

How the results depend on the processing

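The count of 8209 called genes was 3912 in males alone and 1667 when a fold above 1.5 was tested for. It was 7553 to 7939 with 1 library left out, and 6307 to 8536 under the other alternatives run, and none of the 8209 genes changed sign under any of them. Upper-quartile scaling gave 3438 higher and 4992 lower. With the replicate block, 8063 genes were called, and 6339 for the difference between cell types. The labels do not say that the numbers pair the samples, and some same-numbered libraries differed in sex. Same-numbered libraries correlated at over 0.1 in 2 of 6 pairs, and 3 of 6 correlated best with their own number. These values do not settle whether the numbers pair the samples. The difference between cell types, 6883 genes, was called for 6262 to 6797 genes with 1 library left out. It was called for 7482 by DESeq2 (3832 higher, 3650 lower) and 5682 with no filter (3770 higher, 1912 lower). These were not all the same genes. Without 1 microglia library, 4801 to 4979 of the 6883 kept call and direction, and 27 to 120 changed sign. Without 1 astrocyte library, 6252 to 6431 kept both and 0 changed sign. With no filter, 4481 kept both and 77 changed sign. The difference between sexes was called for 3 genes by DESeq2, and for 0 to 1 with 1 library left out (1 without wild-type replicate 5).

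Of 2479 values of 92 named genes under the alternatives, 2399 kept their call and direction, 80 lost the call and 0 changed sign. Of 2117 values of the cell type difference of 73 named genes, 2011 kept both, 71 lost the call, 14 gained one and 21 changed sign, the last for C5ar2 and Mcoln3. Of 58 counts of list members called higher or lower, 42 moved by over 1.5 times when a fold above 1.5 was tested for, 23 in males alone and 0 to 10 under each other alternative. The cell type difference of C5ar2, not called, was -0.0499 as reported, 0.0307 by DESeq2, 0.0016 with RLE, 0.0789 with no filter and -0.287 to 0.207 with 1 library left out. That of Mcoln3, not called, was 0.147 as reported and -0.160 to 0.411 with 1 library left out. The cause was not tested. Low genes such as Oasl1, Col1a2 and Mobp are limited by depth.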

Other observations

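The makeup of the libraries differed between the groups in several shares of total counts. Ribosomal protein genes took 2.52% to 2.70% of counts in APOE44 and 2.18% to 2.38% in wild type, and mitochondrial genes 1.5004% to 1.72% and 1.07% to 1.4948%; neither pair of ranges overlapped. Histone genes took 0.0162% to 0.0227% and 0.0231% to 0.0292%. The 50 most abundant genes took 24.04% to 25.7% and 26.9% to 29.2%. Ribosomal, small nuclear and small nucleolar RNA took 0.294% to 0.599% and 0.0954% to 1.37%, with overlap. Their part in the results was not tested.

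Against APOE33 within batch 1, 3 of the 26 immediate early genes were higher in APOE44 and 0 lower. Of the 119 genes tested within 5 Mb of Apoe, 3 were lower and 0 higher. Over all 18079 genes tested, this contrast called 224 (1.24%) in either direction.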
